A study of Mus musculus with 30 samples.

Results

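The data describe 10 immediate early genes, Egr1, Fos, Fosb, Jun, Junb, Atf3, Btg2, Ier2, Nr4a1 and Myc, in soleus RNA of 30 mice. They were chosen by name, with earlier results of these data known. They were found in the count table through their Ensembl identifiers, 1 row each, so they are 10 of the 56980 genes there. All 10 had enough counts to be among the 16932 genes tested. Every mouse was a C57BL/6J animal of 3 to 4 months. HU mKO mice (n = 8) lacked AMPKα1 and AMPKα2, the catalytic subunits of the energy sensor AMPK, in muscle and had their hindlimbs lifted off the ground for 4 weeks. HU Ctrl mice (n = 7) were unloaded in the same way and carried the same floxed alleles with no Cre. AMB mKO mice (n = 7) had the muscle knockout and walked freely, and AMB Ctrl mice (n = 8) were floxed, Cre-free and ambulatory. The promoter that drives Cre is not given in the labels, and because controls carry no Cre, loss of AMPK and presence of Cre cannot be told apart. Each group held both sexes, and the libraries held 12.1 to 20.9 M counts.

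Immediate early genes are switched on within minutes of a stimulus from factors already present in the cell, and most of their mRNAs decay quickly. Many encode transcription factors: Fos and Jun proteins pair to form AP-1, Egr1 is a zinc finger factor, Atf3 is a stress-induced member of the ATF family, Nr4a1 is an orphan nuclear receptor and Myc pairs with Max. In skeletal muscle several of them are known for their induction by contraction. The soleus itself is a slow postural muscle that bears load during standing.

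Before any comparison, the libraries were checked for mice that stood apart. Prkaa2, the gene of AMPKα2, had 56.0 to 112 CPM in HU mKO mice against 130 to 346 CPM in HU Ctrl mice, and 15.0 to 85.1 CPM in AMB mKO mice against 170 to 258 CPM in AMB Ctrl mice, so neither pair of groups overlapped. CPM here and below are read counts scaled to library size and composition. Prkaa1, the gene of AMPKα1, had 13.4 to 24.3 CPM in HU mKO against 22.4 to 30.4 CPM in HU Ctrl mice, and 8.21 to 36.2 CPM in AMB mKO against 16.5 to 24.9 CPM in AMB Ctrl mice, and the labels do not say which exons were removed. Muscle fibre markers, 11 genes, summed to between 27459 and 108417 CPM in all libraries but AMB mKO replicate 2, which held 3430 CPM. That library also held 9346 CPM of 7 adipocyte markers, against 181 to 1719 CPM in the other 6 AMB mKO libraries, and 2.26 CPM of 5 satellite cell markers, against 32.6 to 86.0 CPM in those 6. HU mKO replicates 2 and 3 held 2135 and 2259 CPM of adipocyte markers, against 112 to 531 CPM in the other 6 HU mKO libraries. Schwann cell markers summed to 452 and 601 CPM in AMB Ctrl replicates 1 and 3, against 56.3 to 92.0 CPM in the rest of that group. They reached 763 CPM in HU Ctrl replicate 7, 848 and 1782 CPM in HU mKO replicates 2 and 3, and 1567 CPM in AMB mKO replicate 2. AMB Ctrl replicate 1 also had its group's lowest tenocyte (190 CPM), macrophage (101 CPM) and satellite cell (36.7 CPM) sums and its highest adipocyte sum (777 CPM). In whole muscle, fewer cells of a type and less RNA per cell cannot be told apart.

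The genes differed widely in level. Per kilobase of exon and averaged over the 30 mice, Jun stood at 29.8 CPM, Nr4a1 at 21.1 CPM and Btg2 at 16.1 CPM, while Junb, Atf3, Ier2 and Fos lay between 4.11 and 5.38 CPM. Egr1 stood at 2.47, Myc at 2.23 and Fosb at 0.144 CPM per kilobase, so Fosb rested on as few as 2 reads in a library and no more than 50. Jun shares bases with the antisense gene Junos, Junb with Prdx2 on the other strand and Atf3 with the short RNA gene Gm24748, and the strand setting of the counting is not stated, so reads of those overlaps cannot be told apart. The spread between mice of the same group and sex was large for some genes and small for others. As a residual SD of log2 CPM it was 0.86 for Fosb, 0.85 for Atf3 and 0.84 for Fos, each above that of at least 91.4% of all genes tested, and 0.36 for Jun and 0.34 for Btg2, below the median of 0.42 over all genes.

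**Figure D1:**
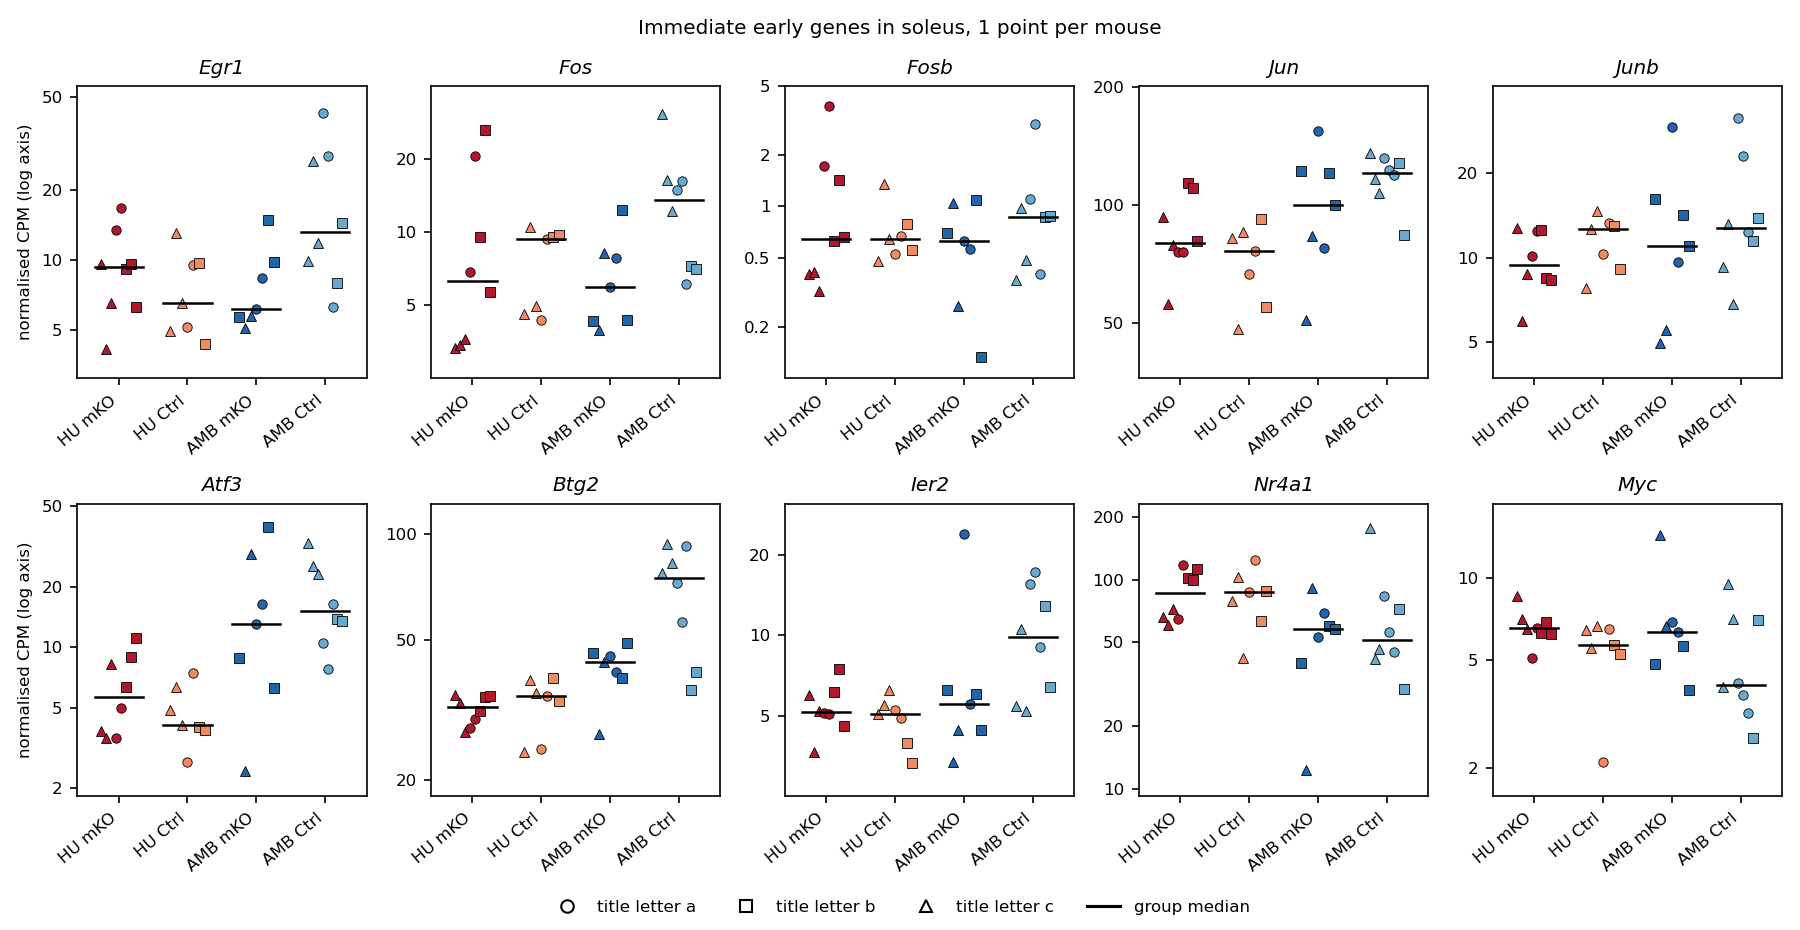
Normalised CPM on log axes for the 10 genes, 1 point per mouse, in HU mKO, HU Ctrl, AMB mKO and AMB Ctrl mice; bars are group medians and symbols give the letter that ends the sample title. Atf3 in HU Ctrl mice, at 2.70 to 7.45 CPM, lies wholly below AMB Ctrl mice at 7.83 to 32.9 CPM, while in most other panels the groups overlap and 1 or 2 mice reach far from the rest.

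The first question was what 4 weeks of unloading did to these transcripts in control mice. Of the 10 genes, 5 fell in HU Ctrl mice and none rose: Atf3, Btg2, Jun, Egr1 and Ier2 (edgeR quasi-likelihood F test, p adjusted after Benjamini and Hochberg over the 16932 genes, threshold 0.05). Over all genes tested, 5.74% fell, 5.37% rose and 11.1% were called in either direction. The median log2 change of the 10 genes was -0.81, against 0.027 for all genes tested. Cell type markers moved in the same comparison. Endothelial markers fell in 3 of 10 genes. They summed to 476 to 642 CPM in HU Ctrl against 577 to 849 CPM in AMB Ctrl mice. Of 9 pericyte and smooth muscle markers 4 fell, with sums of 617 to 910 CPM in HU Ctrl and 686 to 894 CPM in AMB Ctrl mice. By median those sums ran the other way, at 847 CPM in HU Ctrl and 760 CPM in AMB Ctrl mice. Of 11 muscle fibre markers 2 rose and 1 fell, with log2 changes of -2.64 to 3.06, and 1 of 7 tenocyte markers fell. Of 10 macrophage markers 9 had positive values, with a median log2 change of 0.20, and none passed the test. The part of these markers in the changes of the immediate early genes was not tested.

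Atf3 (ENSMUSG00000026628, chromosome 1) had 2.70 CPM in the lowest HU Ctrl mouse, a median of 4.13 and 7.45 in the highest, against 7.83, 15.1 and 32.9 CPM in AMB Ctrl mice. The groups did not overlap, which held for 2.12% of all genes with the lower values in HU Ctrl. The mean was 4.77 ± 1.62 CPM in HU Ctrl (SD, n = 7) and 17.9 ± 8.46 CPM in AMB Ctrl mice (SD, n = 8). The modelled log2 change was -1.93 ± 0.43 (SE), a 3.81-fold lower level, with an adjusted p of 0.00419. Leaving out each of the 30 mice in turn gave changes of -2.07 to -1.70, all called. Here and below, the 30 include mice of the groups not compared, which enter only through the shared spread, scaling, filter and sex term. Within the 3 unexplained letters that end the sample titles, the differences were -1.27, -1.76 and -2.38 in letters a, b and c.

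Btg2 (ENSMUSG00000020423, chromosome 1), an antiproliferative protein that recruits an mRNA deadenylase, ran from 24.0 CPM in the lowest HU Ctrl mouse over a median of 34.6 to 39.0 CPM, against 36.0, 75.1 and 93.8 CPM in AMB Ctrl mice. The ranges met at their edges only: 2 HU Ctrl mice lay above the lowest AMB Ctrl mouse, and 7 of 8 AMB Ctrl mice lay above every HU Ctrl mouse. Btg2 fell by 1.04 ± 0.17 on the log2 scale (SE) with an adjusted p of 0.000335, and every leave-one-out fit called it, at -1.15 to -0.97. The difference was uneven over the title letters, at -1.31 in letter a and -1.39 in letter c but -0.075 in letter b, where 2 HU Ctrl mice stood against 2 AMB Ctrl mice. Those 2 AMB Ctrl mice, replicates 7 and 8, were the lowest of their group at 36.0 and 40.5 CPM. With the letter as a covariate the change was -1.001, still called.

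Jun (ENSMUSG00000052684, chromosome 4), the partner of Fos proteins in AP-1, had 48.1 CPM in the lowest HU Ctrl mouse, a median of 76.3 and 92.1 in the highest, against 84.1, 121 and 136 CPM in AMB Ctrl mice. All but 1 of the AMB Ctrl mice lay above every HU Ctrl mouse. The log2 change of -0.74 ± 0.19 (SE) had an adjusted p of 0.00973, with calls in all 30 leave-one-out fits and differences of -0.80, -0.54 and -0.78 within letters a, b and c.

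Egr1 (ENSMUSG00000038418) had 4.37 CPM in the lowest HU Ctrl mouse, a median of 6.51 and 13.0 in the highest, against 6.27, 13.1 and 42.9 CPM in AMB Ctrl mice. The groups overlapped, and 3 AMB Ctrl mice, replicates 4, 5 and 2, stood high at 42.9, 27.9 and 26.7 CPM while the other 5 lay between 6.27 and 14.4 CPM. Egr1 fell by 1.31 ± 0.37 on the log2 scale (SE, adjusted p = 0.0219). The call ended when either of the 2 highest was left out: without AMB Ctrl replicate 4 the log2 change was -0.996 with an adjusted p of 0.0600, and without AMB Ctrl replicate 5 it was -1.20 with an adjusted p of 0.0539. It also ended with no filter on low counts, at an adjusted p of 0.0626, and with the compared groups alone in the model, at 0.0593.

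Ier2 (ENSMUSG00000053560, chromosome 8), a nuclear protein named for its early induction, had 3.33 CPM in the lowest HU Ctrl mouse, a median of 5.08 and 6.22 in the highest, against 5.21, 9.82 and 17.3 CPM in AMB Ctrl mice. The HU Ctrl mice were tightly grouped and 6 of 8 AMB Ctrl mice lay above all of them. Ier2 fell by 1.14 ± 0.32 on the log2 scale (SE, adjusted p = 0.0213), and it was called in 29 of 30 leave-one-out fits, the exception being AMB Ctrl replicate 5, the highest control, without which it was -1.02 with an adjusted p of 0.0570. Without that mouse both Egr1 and Ier2 lost their calls, so 3 of the 10 genes fell. The Ier2 difference was -1.39 in letter a, -1.29 in letter b and -0.26 in letter c.

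The other 5 genes did not pass the test in control mice. Fos (ENSMUSG00000021250, chromosome 12) had 4.34 CPM in the lowest HU Ctrl mouse, a median of 9.40 and 10.5 in the highest, against 6.09, 13.5 and 30.9 CPM in AMB Ctrl mice, with a log2 change of -0.87 ± 0.42 (SE, adjusted p = 0.190). All 7 HU Ctrl mice lay below the AMB Ctrl median, and without AMB Ctrl replicate 1, the highest mouse, the change was -0.60. Fosb (ENSMUSG00000003545, chromosome 7) had a log2 change of -0.47 ± 0.50, which was -0.031 without AMB Ctrl replicate 5. Junb (ENSMUSG00000052837, chromosome 8) had -0.42 ± 0.31, and -0.18 without AMB Ctrl replicate 4. Nr4a1 (ENSMUSG00000023034, chromosome 15) had a positive value, 0.27 ± 0.30, which was 0.57 without AMB Ctrl replicate 1, and Myc (ENSMUSG00000022346, chromosome 15) had 0.20 ± 0.26.

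**Figure D2:**
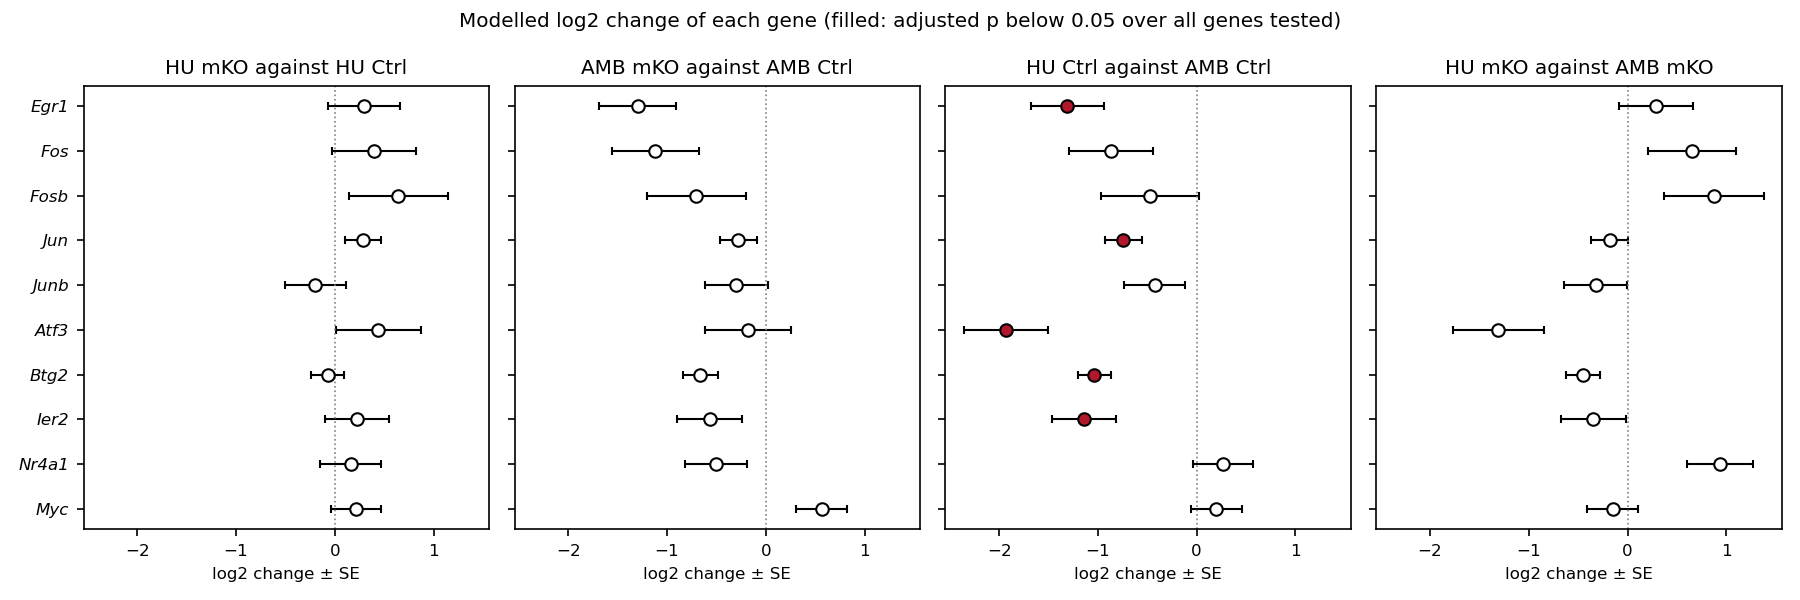
Modelled log2 change of each gene with its standard error in 4 comparisons; a positive value means higher in the group named first, and filled points passed an adjusted p of 0.05 over all genes tested. Only HU Ctrl against AMB Ctrl has filled points, 5 of them, from -0.74 for Jun to -1.93 for Atf3.

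RefSeq promoter windows, 250 bases before to 50 after the annotated start on GRCm38.p6, were matched for 7 of the 10 genes; Egr1, Ier2 and Myc were not in the table used. The windows were searched on both strands for TGACG, the core of the site bound by CREB and ATF factors, for its full palindrome TGACGTCA, which contains the core on both strands, for the AP-1 site TGAGTCA, for TATAAA and for the CArG box of serum response factor. TGACG was in 6 of the 7 windows, all but that of Jun, and in 20.8% of 32851 promoters of the same length. TGACGTCA was in the Btg2 window and in 1.79% of all promoters, and TATAAA was in those of Fos and Junb and in 13.6% of all. The Junb TATAAA covered bases 1 to 6 from the annotated start, and that of Fos lay 33 to 28 bases before it. TGAGTCA and the CArG box were in none of the 7, against 5.20% and 1.63% of all promoters. A match is a description of letters, not evidence of binding, and a missing match says only that the letters are not in the window. The 250 bases before the start are shown for Atf3 and Btg2, which had the smallest adjusted p of the 10 genes in HU Ctrl against AMB Ctrl mice, and for Fos and Nr4a1, which did not pass the test there, 5′ to 3′ on the gene's strand, with TGACG on either strand (read as CGTCA on the other), TGACGTCA and TATAAA in capitals.
Atf3 (chr1:191183334-191183583, minus strand): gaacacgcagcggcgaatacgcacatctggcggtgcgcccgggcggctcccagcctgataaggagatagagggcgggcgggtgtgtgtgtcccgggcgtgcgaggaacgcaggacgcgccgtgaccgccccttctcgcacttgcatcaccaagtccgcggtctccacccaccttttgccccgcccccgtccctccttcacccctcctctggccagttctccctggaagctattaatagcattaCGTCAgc
Btg2 (chr1:134079156-134079405, minus strand): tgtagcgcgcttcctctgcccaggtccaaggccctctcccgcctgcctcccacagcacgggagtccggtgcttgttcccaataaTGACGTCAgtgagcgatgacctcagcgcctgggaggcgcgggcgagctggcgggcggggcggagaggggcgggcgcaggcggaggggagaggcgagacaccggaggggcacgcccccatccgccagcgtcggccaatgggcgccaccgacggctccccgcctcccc
Fos (chr12:85473640-85473889, plus strand): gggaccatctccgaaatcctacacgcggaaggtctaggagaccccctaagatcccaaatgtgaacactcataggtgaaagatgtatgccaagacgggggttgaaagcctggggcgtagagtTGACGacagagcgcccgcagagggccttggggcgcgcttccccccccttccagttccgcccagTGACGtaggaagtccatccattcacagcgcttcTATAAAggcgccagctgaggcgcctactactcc
Nr4a1 (chr15:101266596-101266845, plus strand): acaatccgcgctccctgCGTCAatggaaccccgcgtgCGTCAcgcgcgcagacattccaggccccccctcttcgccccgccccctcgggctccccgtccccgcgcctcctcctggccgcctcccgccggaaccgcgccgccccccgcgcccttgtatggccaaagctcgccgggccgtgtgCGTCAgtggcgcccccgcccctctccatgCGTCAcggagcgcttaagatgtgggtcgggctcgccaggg
The Atf3 window holds 1 core site, 7 to 3 bases before the start, and the Btg2 window holds the palindrome 166 to 159 bases before it. The Fos window has cores starting 129 and 66 bases and a TATAAA 33 bases before the start, and that of Nr4a1 has 4 cores, all read on the other strand. Atf3 and Btg2, which fell, carry the core, as do Fos, Fosb, Junb and Nr4a1, which did not pass the test. Jun also fell and its window holds no core, and Egr1 and Ier2, which fell too, had no window. A relation between the core and the changes was not tested.

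The same question was asked in mice without muscle AMPK. In HU mKO against AMB mKO mice, none of the 10 genes passed the edgeR test, where 10.1% of all genes did (5.3% higher and 4.75% lower), and 3 had an unadjusted p under 0.05, as did 4615 of the 16932 genes tested. The median log2 change of the 10 genes was -0.17, against -0.035 for all genes tested, and it was 0.15 with limma and -0.24 to 0.052 with 1 mouse left out, the highest without AMB mKO replicate 4. Other settings made calls: DESeq2 called Atf3 (adjusted p = 0.0163) and Nr4a1 (adjusted p = 0.0287), limma with library weights called Btg2 (adjusted p = 0.0322), and edgeR without the 3 libraries rich in adipocyte transcripts called Atf3 and Btg2. Cell type markers moved in this pair too. Of 11 muscle fibre markers 2 rose and 1 fell. Values were negative in 9 of 10 macrophage, 7 of 8 fibro-adipogenic progenitor and all 7 tenocyte markers. Of these, 1 progenitor and 1 tenocyte marker fell, as did 1 of 10 endothelial markers. The part of these markers was not tested.

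Atf3 had 3.54 CPM in the lowest HU mKO mouse, a median of 5.67 and 11.1 in the highest, against 2.44, 13.0 and 39.5 CPM in AMB mKO mice. All 8 HU mKO mice lay below the AMB mKO median, but inside the AMB mKO range, whose lowest value belonged to replicate 2. The log2 change was -1.31 ± 0.46 (SE, adjusted p = 0.0648). It was -1.63 without AMB mKO replicate 2, with an adjusted p of 0.00972, and -0.98 without AMB mKO replicate 6, the highest mouse, with an adjusted p of 0.144. It was called in 5 of the 30 leave-one-out fits, among them the fit without AMB Ctrl replicate 1, a mouse outside this pair.

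Btg2 had 27.4 CPM in the lowest HU mKO mouse, a median of 32.3 and 34.9 in the highest, against 27.1, 43.3 and 48.9 CPM in AMB mKO mice. All AMB mKO mice but replicate 2 lay above every HU mKO mouse. The log2 change was -0.45 ± 0.17 (SE, adjusted p = 0.0912), and without AMB mKO replicate 2 it was -0.56 with an adjusted p of 0.0204, the one leave-one-out fit that called it.

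Nr4a1, which in muscle is known to act on genes of glucose metabolism, had 61.0 CPM in the lowest HU mKO mouse, a median of 85.9 and 118 in the highest, against 12.3, 57.8 and 91.4 CPM in AMB mKO mice. All 8 HU mKO mice lay above the AMB mKO median and 4 above the highest AMB mKO mouse. Its log2 change was 0.93 ± 0.33 (SE, adjusted p = 0.0679), positive in every leave-one-out fit at 0.70 to 1.06 and called in 2 of them. Within letters a, b and c it was 0.52, 1.01 and 0.98.

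The remaining genes overlapped between HU mKO and AMB mKO mice. Egr1 had a log2 change of 0.29 ± 0.37, Fos 0.65 ± 0.45 and Fosb 0.87 ± 0.50, and the Fos and Fosb values shrank to 0.25 without HU mKO replicate 7 and to 0.31 without HU mKO replicate 5. Jun had -0.18 ± 0.19, Junb -0.32 ± 0.31, Ier2 -0.35 ± 0.33 and Myc -0.15 ± 0.26. Ier2 was 0.15 without AMB mKO replicate 4, and Myc was 0.14 without AMB mKO replicate 2.

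The knockout was compared with controls first in ambulatory mice. In AMB mKO against AMB Ctrl mice none of the 10 genes passed the edgeR test, where 0.0177% of all genes did, and none passed in DESeq2 or limma. All 7 adipocyte markers had positive values in the same pair, with a median log2 change of 2.22. Of these, 5 had an unadjusted p under 0.05 and none passed the test. By median their sums were in the opposite order, 248 CPM in AMB mKO and 272 CPM in AMB Ctrl mice. AMB mKO replicates 2 and 3 stood highest, at 9346 and 1719 CPM. Without the 3 libraries rich in adipocyte transcripts none of the 10 genes passed either. All 7 tenocyte markers had negative values (median log2 change -0.65) and all 5 erythrocyte markers positive ones (median 0.76). All 10 endothelial markers had negative values, 4 with an unadjusted p under 0.05 and a median log2 change of -0.28, and summed to 482 to 702 CPM in AMB mKO against 577 to 849 CPM in AMB Ctrl mice. Of 9 pericyte and smooth muscle markers 7 had negative values, 3 had an unadjusted p under 0.05 and the median was -0.23, with sums of 590 to 876 CPM in AMB mKO and 686 to 894 CPM in AMB Ctrl mice. None of these markers passed the test, and their part in the values of the immediate early genes was not tested. The values were negative in 9 genes, with a median log2 change of -0.54 against 0.023 for all genes tested, and 4 of the 10 had an unadjusted p under 0.05, as did 1291 of the 16932 genes tested. This comparison has its AMB Ctrl mice in common with that of HU Ctrl against AMB Ctrl, so high control mice enter both.

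Btg2 had 27.1 CPM in the lowest AMB mKO mouse, a median of 43.3 and 48.9 in the highest, against 36.0, 75.1 and 93.8 CPM in AMB Ctrl mice. All 7 AMB mKO mice lay below the AMB Ctrl median, and 6 of 8 AMB Ctrl mice lay above every AMB mKO mouse. The log2 change was -0.66 ± 0.18 (SE, adjusted p = 0.534), and no leave-one-out fit moved it beyond -0.78 to -0.53. Within letters it was -0.76 in a and -1.30 in c but 0.22 in b, the letter of the 2 low AMB Ctrl mice.

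Egr1 had 5.11 CPM in the lowest AMB mKO mouse, a median of 6.16 and 14.8 in the highest, against 6.27, 13.1 and 42.9 CPM in AMB Ctrl mice. AMB mKO mice clustered low and overlapped with the 5 lower AMB Ctrl mice. The log2 change was -1.29 ± 0.39 (SE, adjusted p = 0.534), and -1.02 without AMB Ctrl replicate 4. It was -1.43, -0.19 and -1.41 within letters a, b and c.

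Fos had 3.94 CPM in the lowest AMB mKO mouse, a median of 5.92 and 12.3 in the highest, against 6.09, 13.5 and 30.9 CPM in AMB Ctrl mice. Every AMB mKO mouse lay below the AMB Ctrl median. Its log2 change was -1.12 ± 0.44 (SE, adjusted p = 0.593), and -0.78 without AMB Ctrl replicate 1.

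Other values in this pair moved when single mice were left out. Nr4a1 had a log2 change of -0.51 ± 0.32, which was -0.13 without AMB Ctrl replicate 1, the mouse with 177 CPM. By median the order was the opposite, with 57.8 CPM in AMB mKO and 51.3 CPM in AMB Ctrl mice. Fosb had -0.70 ± 0.50, which was -0.22 without AMB Ctrl replicate 5 at 3.02 CPM. Ier2 had -0.57 ± 0.33, which was -1.09 without AMB mKO replicate 4, the mouse with 23.9 CPM, and its adjusted p was then 0.256. Atf3, at -0.18 ± 0.43, was 0.12 without AMB mKO replicate 2, 0.11 without AMB Ctrl replicate 1 and -0.53 without AMB mKO replicate 6.

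Myc, which drives ribosome synthesis and growth programmes, had 3.87 CPM in the lowest AMB mKO mouse, a median of 6.32 and 14.4 in the highest, against 2.59, 4.05 and 9.52 CPM in AMB Ctrl mice. The highest mouse was AMB mKO replicate 2, the library with few fibre transcripts. The log2 change of 0.57 ± 0.26 (SE, adjusted p = 0.642) was 0.26 without it. The values of Jun, at -0.28 ± 0.19, and of Junb, at -0.30 ± 0.32, stayed negative in every leave-one-out fit.

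**Figure D3:**
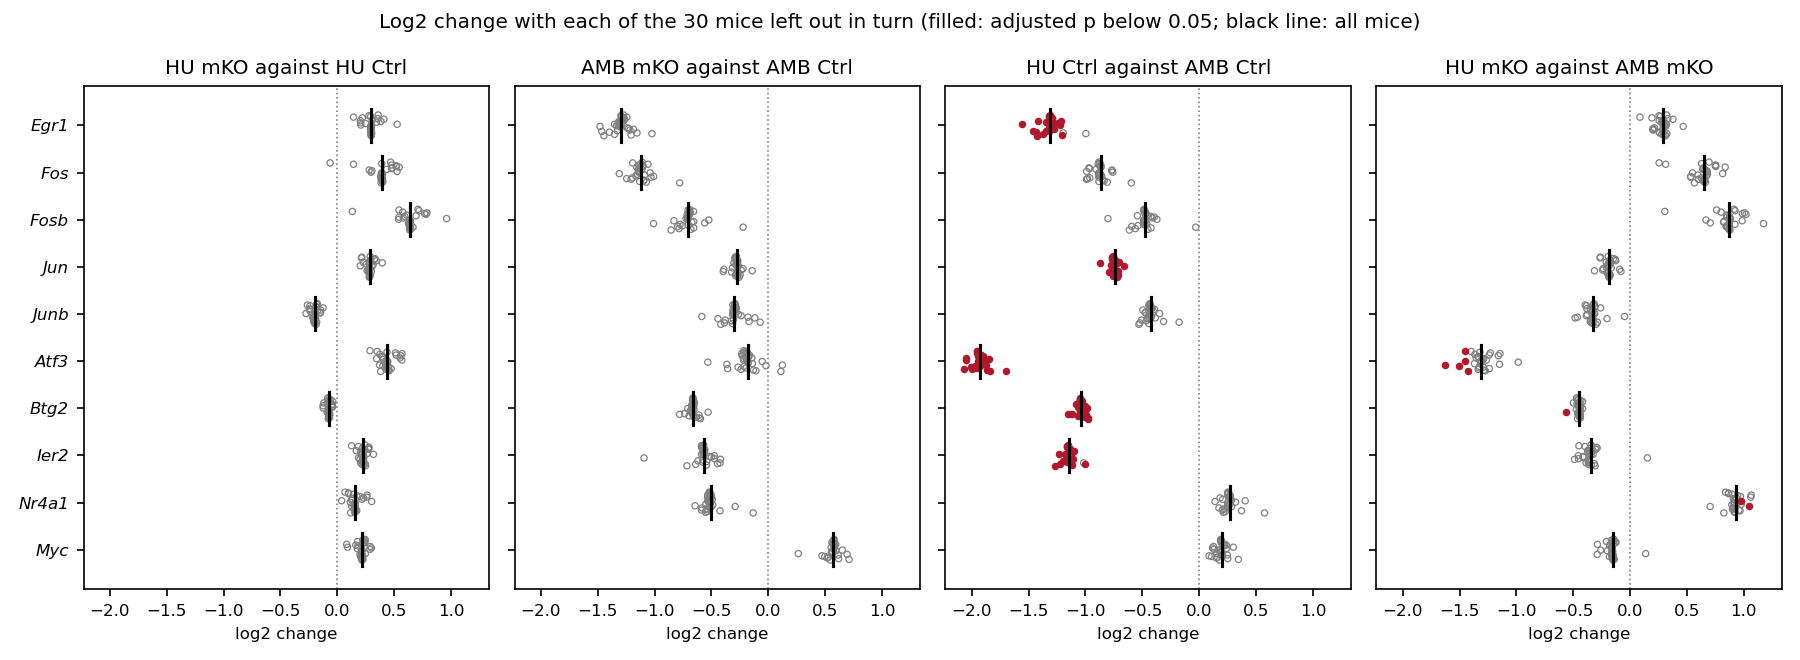
Log2 change of each gene in 4 comparisons when each of the 30 mice is left out in turn; black lines give the value with all mice and filled points an adjusted p below 0.05. Atf3, Btg2 and Jun in HU Ctrl against AMB Ctrl are filled in all 30 fits, while Ier2 in AMB mKO against AMB Ctrl moves to -1.09 when 1 mouse is removed.

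The knockout was then compared with controls in unloaded mice. None of the 10 genes passed the edgeR test in HU mKO against HU Ctrl mice, where 0.0177% of all genes did, and none had an unadjusted p under 0.05 or passed in DESeq2 or limma. The median log2 change was 0.26, with the largest value for Fosb at 0.64 ± 0.50 and the lowest for Junb at -0.20 ± 0.31. All 10 macrophage, 8 fibro-adipogenic progenitor and 7 tenocyte markers had negative values in this pair. All 7 adipocyte and 5 satellite cell markers had positive ones. None of these markers passed the test, and their part in the values of the immediate early genes was not tested.

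Btg2 is the tightest case, at 27.4 to 34.9 CPM in HU mKO mice and 24.0 to 39.0 CPM in HU Ctrl mice, with a log2 change of -0.074 ± 0.17. The Fos value of 0.40 ± 0.42 came with medians in the opposite order, 6.25 CPM in HU mKO and 9.40 CPM in HU Ctrl mice. It rested on HU mKO replicates 7 and 5 at 26.4 and 20.6 CPM, and was -0.064 without replicate 7. Fosb likewise reached 3.86 CPM in HU mKO replicate 5 against a median of 0.644, and its change was 0.13 without that mouse. Atf3 had 0.44 ± 0.43, Egr1 0.30 ± 0.36, Jun 0.28 ± 0.19, Ier2 0.23 ± 0.32, Myc 0.21 ± 0.26 and Nr4a1 0.16 ± 0.31.

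Whether unloading acted differently without AMPK was tested as the interaction, the HU against AMB change in mKO mice minus that in Ctrl mice. None of the 10 genes passed in edgeR, where 0% of all genes did, and none passed in DESeq2 or limma. The values were positive for 9 of 10 genes with a median of 0.64 log2, against -0.016 for all genes, and 4 had an unadjusted p under 0.05, as did 410 of the 16932 genes tested. Egr1 had 1.59 ± 0.53, the change of 0.29 in mKO mice minus that of -1.31 in Ctrl mice, Fos had 1.52 ± 0.61, Btg2 0.59 ± 0.25 and Jun 0.56 ± 0.27, each with an adjusted p of 0.999. The AMB Ctrl mice that stood high in Egr1 and Fos enter this term. A difference in the unloading response of mKO and Ctrl mice was therefore not shown for any of the 10 genes. All 10 macrophage, 8 fibro-adipogenic progenitor and 7 adipocyte markers had negative interaction values, and all 5 satellite cell markers positive ones. None of these markers passed, and their part was not tested.

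Sex and the title letter were examined as other sources of spread. None of the 10 genes passed for male against female mice, where 0.213% of all genes did. Nr4a1 averaged 81.2 CPM in males and 66.7 CPM in females (log2 0.52 ± 0.23, adjusted p = 0.350). Myc averaged 5.44 CPM in males and 6.65 CPM in females (log2 -0.37 ± 0.19, adjusted p = 0.409). By median the order for Myc was the opposite, with 6.32 CPM in males and 6.26 CPM in females. Between letters a, b and c, 28.3% of all genes passed, and 2 of the 10 did, Junb with an adjusted p of 0.0448 and Myc with 0.0331. Junb averaged 16.8, 11.8 and 9.28 CPM in letters a, b and c, and Myc 4.94, 5.44 and 7.51 CPM. Neither passed once the 3 libraries rich in adipocyte transcripts, all of letter c, were left out.

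The extreme mice were not the same for every gene. In AMB Ctrl, replicate 1 was the highest for Fos, Jun, Atf3 and Nr4a1, replicate 4 for Egr1 and Junb, and replicate 5 for Fosb and Ier2. AMB mKO replicate 2 was the lowest of its group in 8 of the 10 genes and the highest in Myc. HU mKO replicate 2, also rich in adipocyte transcripts, was the lowest of its group in 6 of 10 genes. The part of tissue makeup in these values was not tested.

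Over the 30 mice, after removal of group and sex means, the 10 genes moved together only in part. The 45 pairs had a median Pearson r of 0.16 on the log2 scale, with 8 above 0.5 and 10 below 0. Junb and Ier2 were the most alike at 0.79, and 0.67 without the 2 mice farthest from the median of the gene named first. Here and below, mice extreme only in the gene named second stayed in. Atf3 and Nr4a1 had 0.63, and 0.55 without 2 mice, and Egr1 and Fosb had 0.59 in both cases. Nr4a1 and Myc were the most opposed at -0.40, and -0.30 without 2 mice. The title letter was not removed. In letters a, b and c Junb averaged 16.8, 11.8 and 9.28 CPM and Ier2 averaged 10.2, 6.14 and 5.51 CPM. Atf3 and Myc were highest in letter c, at 13.1 and 7.51 CPM. The part of the letter in these correlations was not tested. The values of r are descriptions over libraries that share depth and tissue makeup.

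**Figure D4:**
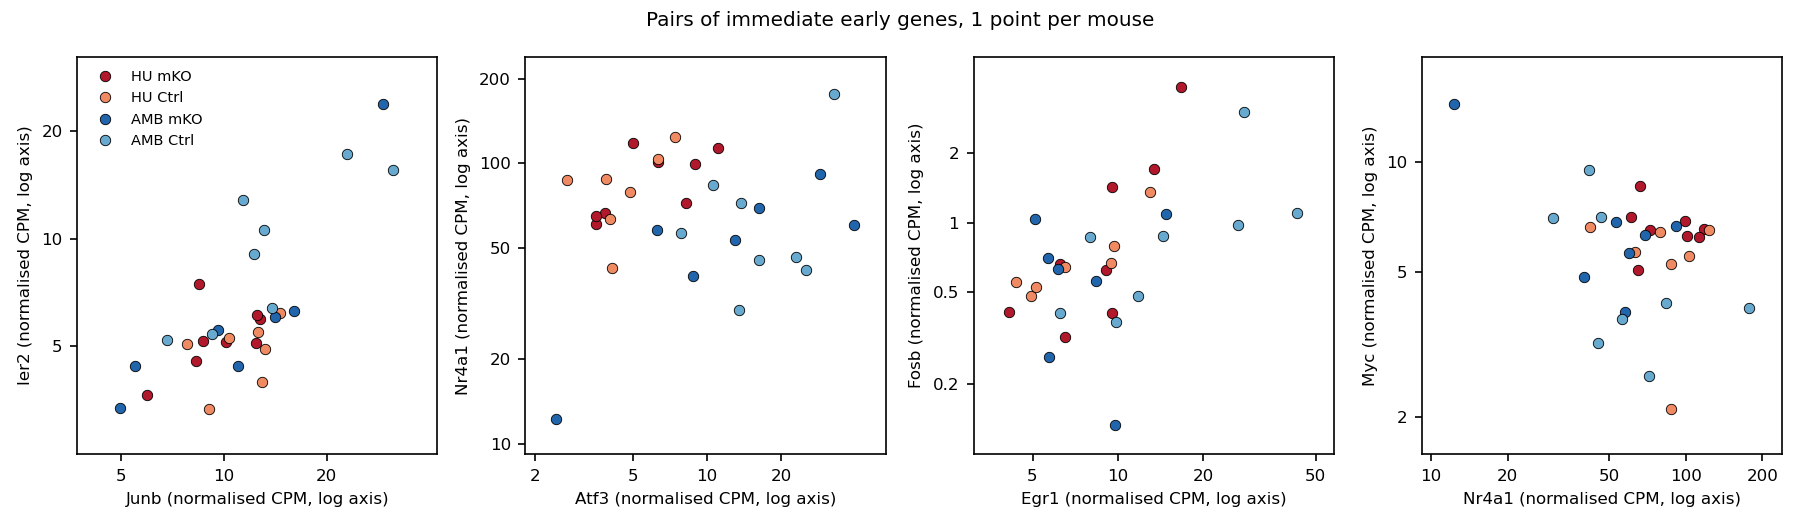
Normalised CPM of 4 pairs of genes on log axes, 1 point per mouse, coloured by group. Junb and Ier2 rise together, with a pair of AMB Ctrl mice and AMB mKO replicate 4 at the upper end, whereas the point at 12.3 CPM of Nr4a1 and 14.4 CPM of Myc is AMB mKO replicate 2.

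Related genes were read from lists chosen by function with earlier results of these data known. Their counts stand beside 11.1% of all genes called in HU Ctrl against AMB Ctrl mice and 10.1% in HU mKO against AMB mKO mice. Because of that choice the counts are descriptions and not a test of enrichment. Of 47 tested other immediate early genes, 11 fell and 2 rose in HU Ctrl against AMB Ctrl mice, with a median log2 change of -0.34. The orphan receptor Nr4a3, of the same family as Nr4a1, had 3.25 ± 1.19 CPM in HU Ctrl and 16.3 ± 9.02 CPM in AMB Ctrl mice (SD), a log2 change of -2.32 ± 0.48 with an adjusted p of 0.00221, while Nr4a1 itself had 0.27. The small Maf protein Mafk changed by -1.03 ± 0.16, the pseudokinase Trib1 by -0.95 ± 0.16 and the inhibitor of bHLH factors Id1 by -1.02 ± 0.21. In HU mKO against AMB mKO mice 7 of the 47 fell and 2 rose, with Mafk at -0.75 ± 0.16 and Rrad, a small GTPase-like protein, at -1.93 ± 0.54.

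Among 13 tested AP-1 partners, 3 fell and 1 rose in HU Ctrl against AMB Ctrl mice. The median log2 change was -0.16. Maf rose by 1.28 ± 0.19 on the log2 scale, and Atf5, Mafg and Jund fell by 0.79, 0.51 and 0.66 on the log2 scale. In HU mKO against AMB mKO mice Maf rose by 0.87 ± 0.19 and Atf5 and Batf3 fell.

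Feedback regulators, the phosphatases and other inhibitors that end the signal, fell in 4 of 22 genes and rose in none in HU Ctrl against AMB Ctrl mice, with a median log2 change of -0.28. The MAP kinase phosphatase Dusp8 had 23.1 ± 8.17 CPM in HU Ctrl and 65.6 ± 19.4 CPM in AMB Ctrl mice (SD), a log2 change of -1.60 ± 0.29. Dusp5 and Dusp1 of the same family changed by -2.04 ± 0.45 and -0.65 ± 0.19, and Spry4, an inhibitor of receptor tyrosine kinase signalling, by -1.29 ± 0.24. In HU mKO against AMB mKO mice 4 of the 22 fell as well, Dusp8, Nab2, Dusp5 and Spry4. Nab2 is a corepressor of Egr proteins.

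Heat shock genes, which answer protein stress, fell in 9 of 14 genes in HU Ctrl and in 6 of 14 in HU mKO mice, each against AMB mice of the same genotype, and none rose. Hspa1a and Hspa1b, near-identical copies whose reads the counting may have split, changed by -2.20 ± 0.41 and -2.22 ± 0.38 in HU Ctrl mice. Of 24 tested upstream kinases and factors, 1 rose and none fell in either comparison. It was Rps6ka5, a kinase of histone H3 and CREB, at 57.9 ± 12.8 CPM in HU Ctrl and 24.7 ± 4.64 CPM in AMB Ctrl mice (SD). Of 25 Myc target genes, 1 rose (Wdr43) and 1 fell (Odc1, ornithine decarboxylase, at -0.70 ± 0.13) in HU Ctrl mice, and 1 rose and 2 fell in HU mKO mice. No gene of these 6 lists passed in either genotype comparison or in the interaction.

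**Figure D5:**
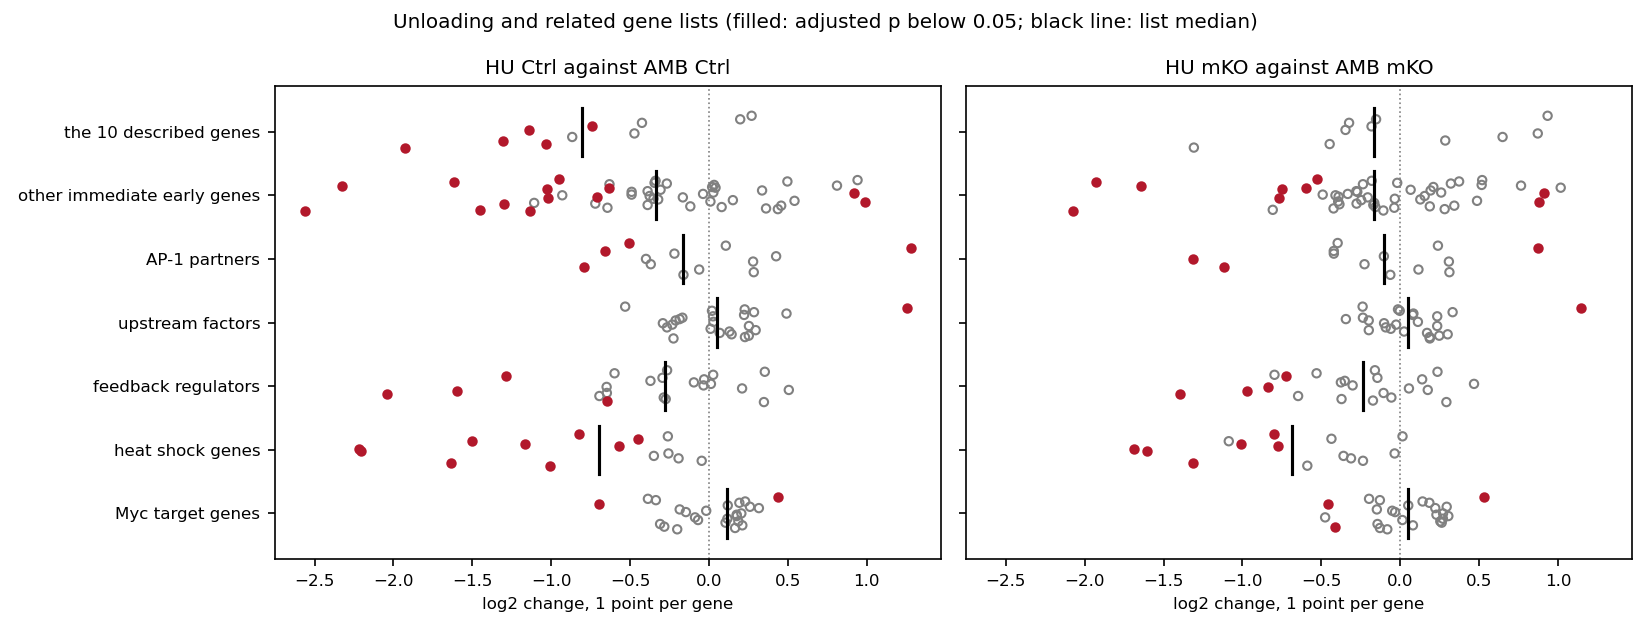
Log2 change under unloading, 1 point per gene, for the 10 described genes and 6 related lists in Ctrl and in mKO mice; filled points passed an adjusted p of 0.05 and black lines are list medians. Heat shock genes have medians of -0.70 in Ctrl and -0.68 in mKO mice, while in Ctrl mice upstream factors have a median of 0.048 and Myc targets one of 0.12.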

How the data were processed

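RNA was sequenced from the soleus of 30 mice. The authors deposited unnormalised read counts, with a row for each Ensembl gene and a column for each mouse. A directional library kit is named per the labels' protocols, and cutadapt 1.16, STAR 2.7.9a, featureCounts 1.6.3, DESeq2 1.34.0 and the builds GRCm39 and mm39 per the submitters' processing notes. No annotation release, strand setting or filter is given in the sources used here. The attached protocols also describe people and myotubes, which does not match mouse soleus, and were not used further. Symbols were found for 52073 of 56980 genes, exon lengths and overlaps come from GENCODE M21 on GRCm38, and promoters from RefSeq on GRCm38.p6. Gene positions on the authors' build are not given.

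Counts were scaled by TMM and filtered with filterByExpr in edgeR 4.0.16 (R 4.3.3), leaving 16932 genes. A robust quasi-likelihood model with 4 group terms and sex was fitted to all 30 libraries, and p-values were adjusted over all genes by Benjamini-Hochberg with a threshold of 0.05. Values after ± are standard errors beside log2 changes and SDs beside CPM, and folds come from the model. Correlations and the spread use log2 CPM with a prior count of 2. Within-letter values are differences of mean log2 CPM. Total counts were 12.1 to 20.9 M per library. Fosb had 2 to 50 reads in a library, Myc 32 to 319 and Ier2 48 to 303, so counting error is part of the spread of such genes. Replicate numbers follow the order of deposit and name mice only. The labels do not state that animals came from separate litters, so p-values measure the spread between these mice. The method was run on simulated counts with known changes in AMB mKO mice. The simulation held no effect of sex, title letter or single aberrant libraries, so it does not cover those features of the data. Alternatives were DESeq2 1.42.0, limma 3.58.1 voom with library weights, median-of-ratios scaling, 2 other filters, sex left out, the title letter as covariate, the compared groups alone, 3 adipocyte-rich libraries left out and each mouse left out. The letter as covariate with AMB mKO replicate 2 left out was chosen after seeing the data. All 10 genes are named in each comparison, with up to 4 genes of each related list by smallest p. The genes and lists were chosen with earlier results of these data known.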

Additional observations from a re-analysis of the deposited data

Results flagged for a closer look

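Of 40 sets of values, 10 genes in 4 groups, 8 held a mouse far from the rest by the gap between it and its nearest neighbour relative to the range of the group. About 1 in 20 such sets are marked by chance where values are normally distributed, which was not tested for these CPM. Fosb accounted for 3 of them, with 3.86 CPM in HU mKO replicate 5 (next 1.71), 1.36 CPM in HU Ctrl replicate 2 (next 0.793) and 3.02 CPM in AMB Ctrl replicate 5 (next 1.10). Myc had a high mouse in AMB mKO, replicate 2 at 14.4 CPM (next 6.87), and a low mouse in HU Ctrl, replicate 4 at 2.10 CPM (next 5.27). Ier2 stood at 23.9 CPM in AMB mKO replicate 4 (next 6.26). AMB Ctrl replicate 1 was apart in Fos at 30.9 CPM (next 16.5) and in Nr4a1 at 177 CPM (next 83.9).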

How the results depend on the processing

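In HU Ctrl against AMB Ctrl mice the same 5 genes were called under DESeq2, limma, median-of-ratios scaling, sex left out, the letter covariate and the libraries left out for adipocyte transcripts, 4 of them (all but Egr1) with no low-count filter or with the compared groups alone, and 3 to 5 without 1 mouse. In HU mKO against AMB mKO mice the count of 0 became 2 with DESeq2, without the 3 adipocyte-rich libraries, and with the letter as covariate and AMB mKO replicate 2 left out, and 1 with sex left out or with limma, and ranged from 0 to 2 without 1 mouse. The median change there was 0.15 with limma and -0.24 to 0.052 without 1 mouse. The 2 genes that differed between letters became 0 without the adipocyte-rich libraries. The cause was not tested for these shifts.

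Values that changed sign were all uncalled. Atf3 in AMB mKO against AMB Ctrl was 0.12 without the adipocyte-rich libraries, 0.13 with the letter and no AMB mKO replicate 2, and -0.53 to 0.12 without 1 mouse. Fos in HU mKO against HU Ctrl ran from -0.064 to 0.54 without 1 mouse. In HU mKO against AMB mKO, Ier2 was 0.13 with limma and -0.49 to 0.15 without 1 mouse, and Myc was 0.22 with limma, 0.13 without the adipocyte-rich libraries, 0.023 with the letter and no AMB mKO replicate 2, and -0.29 to 0.14 without 1 mouse. In the interaction, Junb was -0.012 with the letter, -0.0060 without the adipocyte-rich libraries, -0.22 with the letter and no AMB mKO replicate 2, and -0.11 to 0.37 without 1 mouse, and Myc was 0.097 with limma and 0.0027 without the adipocyte-rich libraries.

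No paired analysis was possible because the replicate numbers follow the order of deposit and tie no mouse of one group to a mouse of another. Low counts limit Fosb, whose lowest library held 2 reads.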

Other observations

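Among 14373 genes with a mean of at least 1 CPM, those whose residuals followed the mean residual of the 10 immediate early genes most closely over the 30 mice were Mamdc2 (Pearson r 0.68, and 0.64 without the 2 farthest mice), Gm16001 (0.66 and 0.62) and Myog (0.64 and 0.50), the last a transcription factor of muscle differentiation. The next were Baiap2l1, Ring1, A930033H14Rik, Nfatc2, Tle6, Slc38a1 and Orai1, with r of 0.60 to 0.64. Of the 50 genes most alike, 1 was another immediate early gene (Egr3), 2 were feedback regulators and 1 was a Myc target (Nop56). The 2 farthest mice were picked by the mean residual of the 10 genes alone, so mice extreme only in the other gene stayed in. The title letter was not removed from the residuals. These are descriptions over libraries that share depth and tissue makeup, with no test.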
